A study of Mus musculus with 53 samples.

Results

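Collagen chain genes are the genes whose symbol has the form Col, a number, the letter a and a number. By that rule 44 of the 43432 genes listed in both RNA tables of this series were collected: 11 chains of fibrillar collagens, 9 of network collagens, 9 of FACIT collagens (fibril-associated collagens with interrupted triple helices), 6 of beaded filament collagens and 9 others. RNA had been sequenced from mouse embryonic fibroblasts (MEFs) that were wild type (WT) or carried a knockout (KO) of Anp32e, which encodes a histone chaperone that takes the variant H2A.Z off chromatin. In the first table, in FPKM, the treatments were DAC, the usual abbreviation of decitabine, which blocks DNA methyltransferases, and DMSO. DMSO had 2 libraries per genotype and DAC had 3. In the second table, in RPKM, the cells had been given an siRNA against H2A.Z or an siRNA labelled NT, with 3 libraries per genotype and siRNA. FPKM and RPKM both scale reads to the length of the gene and to the total of the library, so within a table they compare genes per length. The labels name no strain, age, dose, time or clone. They call the replicates biological without saying whether these were separate cultures or animals, so p-values measure only the spread between these libraries.

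Collagens are the main structural proteins of the extracellular matrix, and fibroblasts are a principal source of them. Their alpha chains are hydroxylated and glycosylated in the endoplasmic reticulum, wound into a triple helix with the help of chaperones, exported as procollagen and trimmed by proteases outside the cell. Fibrillar chains pack into banded fibrils, type IV chains form the sheet of basement membranes, FACIT collagens decorate fibrils, and type VI collagen forms beaded filaments close to the cell surface.

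Library totals solved from the values ran from 27503472 to 36910532 reads with DMSO or DAC and from 31928320 to 47172427 with the siRNAs. Anp32e averaged 14.5 FPKM in WT DMSO and 5.09 in KO DMSO, and 19.3 RPKM in WT NT and 5.07 in KO NT, so it was lower but not at 0 in the libraries labelled KO. H2afz, a gene of H2A.Z, averaged 201.6 RPKM with NT and 17.2 with H2AZ siRNA in WT, and 193.9 and 27.9 in KO. All 8 fibroblast markers (Vim, Pdgfra, Pdgfrb, Thy1, Fn1, Twist1, Prrx1 and S100a4) averaged at least 1 in every group, and their summed level was 1812 to 1815 in WT DMSO, 999.7 to 1007 in KO DMSO, 1531 to 1634 in WT DAC and 1457 to 1561 in KO DAC. Markers of mesothelium, of which 11 of the 12 in the list were found, moved with genotype and treatment: their summed level was 10.2 to 12.3 in WT DMSO (Gpm6a and Lrrn4 at 0), 1040 to 1073 in KO DMSO, 43.5 to 57.9 in WT DAC and 122 to 143.4 in KO DAC, and 23.1 to 24.6 in the 6 WT and 182 to 222.9 in the 6 KO siRNA libraries. The 4 Y-linked genes summed to at most 0.164 in every WT library and to at least 9.25 in every KO library, so genotype and the sex of the cells cannot be told apart. The KO DMSO libraries stood apart on the first principal component of their table (66.2 and 66.8, against -1.88 or less in the other 8). In the DMSO and DAC table the libraries least like their fellows were WT DAC replicate 3 and KO DAC replicate 1, with mean correlations of 0.980 and 0.981. In the siRNA table all means lay between 0.994 and 0.996, and replicate 1 was the lowest of WT NT and of KO NT. The part of these differences in the collagen results was not tested, and in bulk RNA fewer cells of a type and less RNA per cell cannot be told apart.

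Promoter windows from RefSeq (GRCm38.p6, which is mm10) cover the 250 bases before a start site and matched 35 of the 44 genes. Of the 38 collagen windows, 5 (13.2%) held TATAAA on either strand, against 12.4% of the 32817 windows of all genes. CCAAT was in 13 (34.2%, against 33.8%) and GGGCGG, the core of a GC box, in 22 (57.9%, against 32.7%). The windows held 0 to 31 CpG dinucleotides, with a median of 9.5 against 6 in all windows, and windows with more CpG have more chances to hold a GC box. The 6 windows below are shown because they belong to chains that DAC lowered (Col1a2, Col3a1, Col8a2) or raised (Col8a1), or to a neighbouring pair (Col4a5, Col4a6). DAC lowered both chains of that pair in KO, and in WT only the change of Col4a5 was called. Each is written 5′ to 3′ on the strand of its gene and stops before the first annotated base of the gene, and capitals mark these 3 motifs on either strand, overlapping matches included. The plus strand carries Col1a2 at chr6:4505368-4505617, Col3a1 at chr1:45311288-45311537, Col4a5 at chrX:141475169-141475369 and Col8a2 at chr4:126286544-126286793. The minus strand carries Col4a6 at chrX:141474096-141474326 and Col8a1 at chr16:57754738-57754987.
Col1a2: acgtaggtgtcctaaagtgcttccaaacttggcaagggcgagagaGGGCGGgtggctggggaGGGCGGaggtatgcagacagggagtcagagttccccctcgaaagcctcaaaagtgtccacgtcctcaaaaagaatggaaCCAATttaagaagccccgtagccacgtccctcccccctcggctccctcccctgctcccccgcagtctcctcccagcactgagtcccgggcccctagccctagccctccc
Col3a1: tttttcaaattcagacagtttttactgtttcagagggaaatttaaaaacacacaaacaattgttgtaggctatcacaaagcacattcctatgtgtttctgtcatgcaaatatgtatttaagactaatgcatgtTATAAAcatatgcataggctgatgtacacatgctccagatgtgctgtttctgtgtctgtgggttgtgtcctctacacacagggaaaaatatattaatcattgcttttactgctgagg
Col4a5: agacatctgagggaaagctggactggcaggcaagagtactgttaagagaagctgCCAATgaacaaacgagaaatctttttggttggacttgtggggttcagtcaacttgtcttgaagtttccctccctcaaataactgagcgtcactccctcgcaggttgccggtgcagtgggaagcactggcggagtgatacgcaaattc
Col4a6: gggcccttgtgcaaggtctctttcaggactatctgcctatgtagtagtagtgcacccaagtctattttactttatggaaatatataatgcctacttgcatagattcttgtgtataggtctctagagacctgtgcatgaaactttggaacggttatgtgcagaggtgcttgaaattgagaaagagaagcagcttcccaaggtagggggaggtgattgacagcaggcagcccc
Col8a1: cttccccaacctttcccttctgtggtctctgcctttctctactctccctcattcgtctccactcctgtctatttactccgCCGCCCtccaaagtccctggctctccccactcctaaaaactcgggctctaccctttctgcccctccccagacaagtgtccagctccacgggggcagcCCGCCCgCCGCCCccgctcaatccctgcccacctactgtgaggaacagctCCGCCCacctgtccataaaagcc
Col8a2: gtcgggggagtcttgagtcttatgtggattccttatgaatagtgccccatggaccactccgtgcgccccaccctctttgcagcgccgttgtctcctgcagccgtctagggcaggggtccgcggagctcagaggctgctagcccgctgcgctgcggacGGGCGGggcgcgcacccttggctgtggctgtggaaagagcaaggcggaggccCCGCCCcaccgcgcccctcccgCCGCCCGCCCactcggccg
The Col3a1 window held no CpG and a TATAAA, and the Col1a2 window held 11 CpG, a CCAAT and 2 GC boxes. Col8a1 and Col8a2, the chains of type VIII collagen, each held 4 GC boxes with 10 and 24 CpG. Col4a5 and Col4a6 lie head to head on chromosome X, with start sites 1343 bases apart, and their shown stretches of 201 and 231 bases held 6 and 1 CpG. Col4a1 and Col4a2 lie head to head on chromosome 8 with start sites 21 bases apart, so that their transcripts overlap at their starts, and their windows held 31 and 26 CpG. A match in these letters is a description and not a binding site, and the handling of strand in the counting is not stated, so reads at overlapping starts could be shared.

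In WT DMSO cells the collagen RNA was dominated by a few chains. Col1a1, the major chain of type I collagen, measured 1440 and 1529 FPKM and made up 52.8% and 52.6% of the summed collagen level. Col6a1, a chain of beaded type VI collagen, came next at 306 and 332 FPKM. Col5a2, Col1a2, Col4a1, Col3a1, Col5a1, Col6a2, Col4a2 and Col6a3 followed with means from 139.1 down to 77.1 FPKM, in that order, and several neighbours in it overlapped between libraries (Col1a2 at 121 and 132, Col3a1 at 96.8 and 117.1). Col10a1, whose protein is best known from hypertrophic cartilage, averaged 45.4, and Col12a1, a FACIT chain, 41.4. The order differed in the siRNA table: in WT NT Col5a2 led with a mean of 246.2 RPKM, followed by Col1a1 at 78.6, Col1a2 at 74.2, Col3a1 at 69.0, Col4a1 at 65.9 and Col6a1 at 63.5. The tables were normalised separately, so their levels are set side by side with no test.

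**Figure D1:**
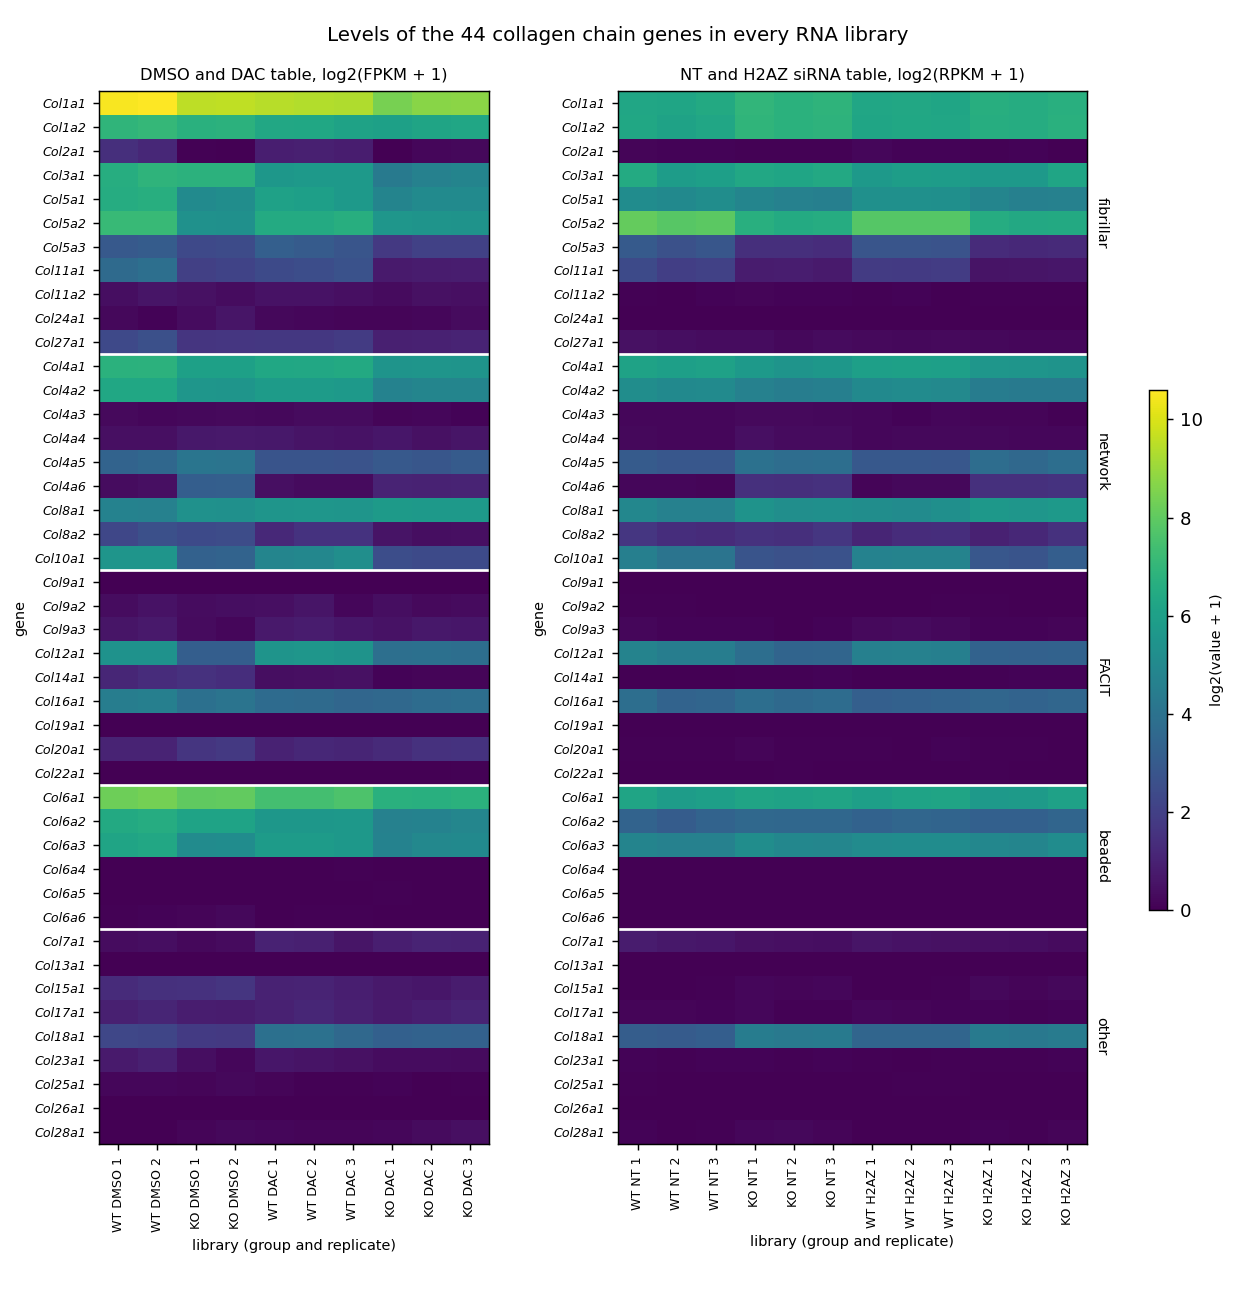
Level of each of the 44 collagen chain genes (rows, grouped by class) in each of the 22 RNA libraries (columns), as log2 of the value plus 1, with FPKM on the left and RPKM on the right. Col1a1 and Col6a1 are brightest in the left panel and Col5a2 in the WT libraries of the right panel, while many rows stay near 0 throughout.

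Collagen RNA as a whole took 1.963% and 2.09% of reads in WT DMSO, 1.16% and 1.19% in KO DMSO, 1.10 to 1.15% in WT DAC and 0.610 to 0.701% in KO DAC. These 4 groups did not overlap. With the siRNAs the share was 0.630 to 0.754% in WT NT, 0.570 to 0.650% in KO NT, 0.665 to 0.684% in WT H2AZ siRNA and 0.503 to 0.566% in KO H2AZ siRNA, so WT NT and KO NT overlapped and the H2AZ siRNA groups did not. Values below are the deposited levels, and changes are differences of log2(value + 1) from limma, given with the standard error (SE), which understate the change of low genes. A gene was tested if it reached a value of 1 in at least 2 libraries of the DMSO and DAC table or 3 of the siRNA table, and called where its p, adjusted by Benjamini-Hochberg over all genes tested, was under 0.05.

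Of the 44 genes, 27 passed that filter in the DMSO and DAC table and 20 in the siRNA table. The 17 that did not pass in the first table stayed at or below 0.920 FPKM in every library (highest, Col23a1), and 1 of them, Col19a1, was listed at 0 in all 10. The 24 that did not pass in the second stayed at or below 0.750 RPKM (highest, Col7a1). They include the cartilage chains Col9a1, Col9a2, Col9a3 and Col11a2, the kidney and lung basement membrane chains Col4a3 and Col4a4, and Col6a4, Col6a5 and Col6a6 of the beaded class. Some genes passed through some groups only, and there a difference is in part a product of the filter. Col2a1 reached 1 FPKM only in WT DMSO, Col14a1 only in the DMSO groups, and Col7a1 only in the DAC groups. Col4a6 reached 1 only in KO libraries of both tables, and Col11a1 of the siRNA table only in WT libraries. In the first table Col8a2, Col11a1 and Col15a1 reached 1 in every group but KO DAC, and Col17a1 in every group but KO DMSO.

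In DMSO, KO cells had less RNA than WT cells for most of the measured collagens. Of the 27 tested, 16 were lower, 4 were higher and 7 were not called, where 42.5% of the 16435 genes tested were called (19.6% higher, 22.9% lower). WT and KO libraries did not overlap for 25 of the 27, and for 74.9% of all genes. The median change over the 27 was -0.46, against -0.04 over all genes. The lower genes were 7 of 9 fibrillar, 3 of 7 network, 2 of 4 FACIT, all 3 tested beaded and 1 of 4 other chains, and the higher ones were Col4a5, Col4a6, Col8a1 and Col20a1. The mesothelial markers, 9 of 11 of which were higher in the same comparison, moved with it. Of the 8 fibroblast markers 7 were lower and 1 was higher. The 5 smooth muscle markers summed to 199.3 to 249.7 FPKM in WT DMSO and 58.7 to 60.5 in KO DMSO. Acta2 alone had means of 195.3 and 38.0, and of the 4 smooth muscle markers tested 2 were lower and 1 was higher. The part of these markers in the collagen differences was not tested.

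In DAC, 18 of the 27 were lower in KO than in WT and 3 were higher, where 22.7% of all genes were called (11.1% higher, 11.6% lower). Libraries of the genotypes did not overlap for 23 of the 27, against 36.9% of all genes. The median change was -0.76, against -0.001 over all genes. Mesothelial markers were again higher in KO (8 of 11, 1 lower), while 2 of the 8 fibroblast markers were lower and 1 was higher. The collagens lower in both treatments numbered 15 of 27 and those higher in both 3, where 8.10% and 6.997% of all genes were. Col2a1, among the 15, passed the filter only through WT DMSO, and Col4a6, among the 3, only through KO libraries. Both counts are therefore in part a product of the filter.

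The same genotype comparison in the siRNA table gave similar numbers of higher and lower collagens. With NT siRNA 8 of the 20 tested were higher in KO and 8 lower, where 64.1% of the 12668 genes tested were called (23.7% higher, 40.4% lower). With H2AZ siRNA 6 were higher and 9 lower, where 62.9% were called (20.2% higher, 42.7% lower). The collagen medians were 0.17 and -0.14, against -0.10 and -0.12 over all genes, and the share of collagens called, 80.0% and 75.0%, stands beside a background of 64.1% and 62.9%. The genotypes did not overlap for 16 of the 20 with NT and 15 with H2AZ siRNA, where 66.8% and 70% of all genes did not. Because the median of all genes itself moved, a median-centred scaling was also run. It kept all 16 calls made with NT and 14 of the 15 made with H2AZ siRNA, and with NT it gave 11 higher and 8 lower. Marker sums moved with genotype here too: fibroblast markers summed to 1482 to 1568 RPKM in the 6 WT and 2028 to 2223 in the 6 KO libraries, the 5 smooth muscle markers to 1676 to 1876 and 835.1 to 988.8, and mesothelial markers to 23.1 to 24.6 and 182 to 222.9. Their part was not tested.

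DAC lowered most of the measured collagens in both genotypes. In WT, 19 of the 27 fell and 3 rose, where 28.3% of genes were called (14.5% higher, 13.8% lower). In KO, 17 fell and 4 rose, where 45.2% were called (23.7% higher, 21.6% lower). DAC and DMSO libraries did not overlap for 23 of the 27 in WT and 24 in KO, against 53.7% and 64.6% of all genes. The medians were -0.55 and -0.63, against -0.01 and 0.01 over all genes. The WT and KO comparisons share no library, and 15 collagens fell in both, where 6.99% of all genes tested did so. Col7a1, Col8a1 and Col18a1 rose in both, where 9.64% of all genes did, and no collagen was called in opposite directions. Col7a1 passed the filter only through the DAC groups, and Col14a1, among the 15, only through the DMSO groups. Both counts are therefore in part a product of the filter. The calls of Col7a1 and Col15a1 in WT and of Col16a1 in KO depended on single libraries, as given below. Marker lists moved with DAC in both directions. Chondrocyte markers were lower with DAC in WT (summed level 25.4 to 28.1 in WT DMSO and 11.9 to 13.2 in WT DAC). Of the 8 fibroblast markers 6 were lower and 1 higher with DAC in WT, while 5 were higher and 2 lower in KO. Of 11 mesothelial markers 6 were higher and 0 lower in WT, while 2 were higher and 8 lower in KO. The part of these markers was not tested.

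**Figure D2:**
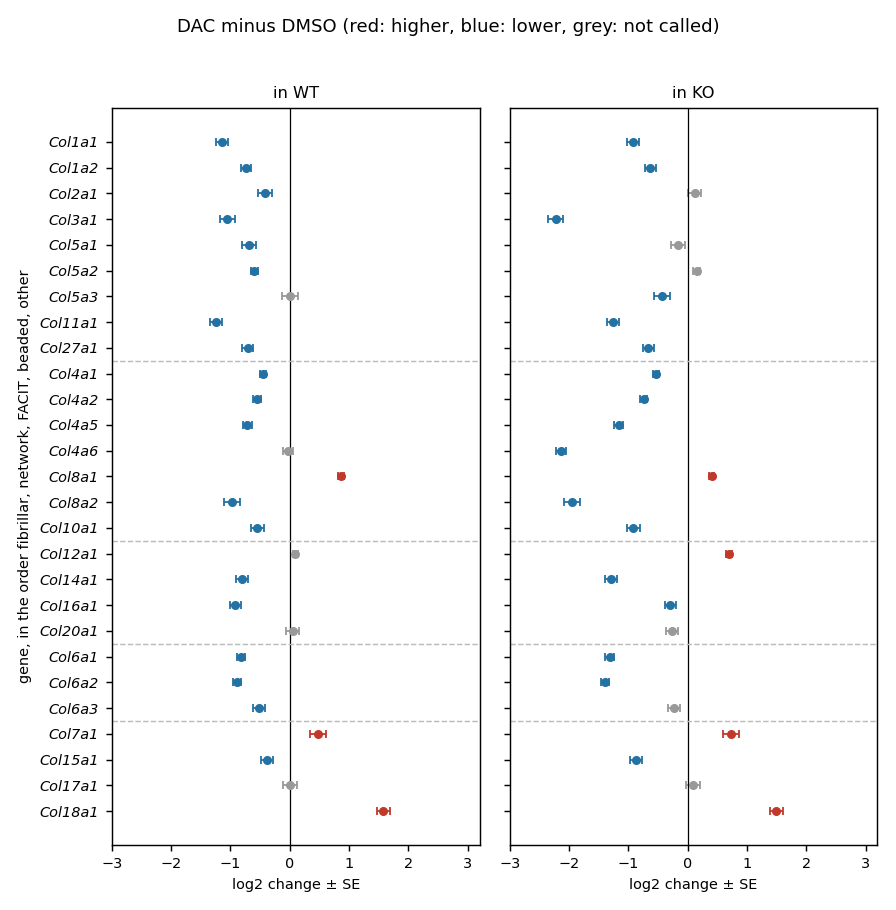
Change with DAC in WT (left) and KO (right) for the 27 collagen genes tested, as the difference of log2(FPKM + 1) with its SE, in class order. Most points lie left of 0 in both panels, Col18a1 and Col8a1 lie right of 0 in both, and Col3a1, Col4a6 and Col8a2 lie farther left in KO.

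Among the fibrillar chains, Col1a1 was lower in KO than in WT in both treatments and fell with DAC. It measured 1440 and 1529 FPKM in WT DMSO, 739 and 766 in KO DMSO, 698, 670 and 638 in WT DAC, and 346, 416 and 429 in KO DAC. Neither genotype nor treatment groups overlapped. The KO change was -0.98 ± 0.11 in DMSO (adjusted p = 0.00014) and -0.76 ± 0.09 in DAC (adjusted p = 0.00057), and DAC lowered it by a change of -1.15 ± 0.10 in WT and -0.93 ± 0.10 in KO (adjusted p = 8.9e-05 and 0.00011). With siRNA the direction of the genotype difference was the opposite: 76.6, 74.3 and 84.9 RPKM in WT NT lay below 126, 108 and 117 in KO NT (0.57 ± 0.06, adjusted p = 1.8e-05). In the H2AZ siRNA groups WT measured 76.9, 79.9 and 73.9 and KO 100.1, 94.4 and 101.8 (0.36 ± 0.06, adjusted p = 0.00055). Each difference was called within its own table, and the difference between the tables was not tested.

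Col1a2 encodes the partner chain of type I collagen. It measured 121 and 132 FPKM in WT DMSO, 106 and 112 in KO DMSO, 79.9, 78.2 and 68.6 in WT DAC, and 64.2, 71.5 and 75.3 in KO DAC. DAC groups lay below DMSO groups in both genotypes (-0.74 ± 0.09 and -0.63 ± 0.09, adjusted p = 0.00046 and 0.0005). The genotype difference was not called in DMSO (-0.21 ± 0.10, adjusted p = 0.12), although these groups did not overlap, or in DAC (-0.10 ± 0.08, adjusted p = 0.42). The DMSO difference was called when WT DAC replicate 3 and KO DAC replicate 1, which are in the fit but not in this comparison, were left out together (-0.21, adjusted p = 0.0167). With NT siRNA, WT measured 78.9, 67.6 and 76.0 RPKM and KO 122.5, 109 and 116, without overlap (0.64 ± 0.07, adjusted p = 9.2e-06), and with H2AZ siRNA WT measured 74.2, 77.8 and 76.0 and KO 96.4, 93.3 and 105.7 (0.37 ± 0.07, adjusted p = 0.00051).

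Col3a1, the chain of type III collagen that shares fibrils with type I, differed between the genotypes in its response to DAC. It measured 96.8 and 117.1 FPKM in WT DMSO, 111 and 112 in KO DMSO, 47.4, 52.4 and 53.0 in WT DAC, and 19.2, 24.1 and 26.3 in KO DAC. The DMSO groups overlapped (0.07 ± 0.14, adjusted p = 0.74), and the KO DAC libraries lay below all others. DAC changed it by -1.05 ± 0.13 in WT and by -2.23 ± 0.13 in KO, and the difference between these responses was itself called (-1.18 ± 0.18, adjusted p = 0.0019). With the siRNAs the levels were 87.6, 56.9 and 62.5 RPKM in WT NT, 82.0, 75.0 and 83.5 in KO NT, 50.4, 58.8 and 57.8 in WT H2AZ siRNA, and 52.1, 51.7 and 73.2 in KO H2AZ siRNA. The genotypes overlapped under both siRNAs and neither difference was called (adjusted p = 0.21 and 0.73), but without WT NT replicate 1 the NT difference was called (0.42, adjusted p = 0.021), as it was under median centring (0.36, adjusted p = 0.044).

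Type V and type XI collagens nucleate fibrils and limit their width. The chains Col5a1, Col5a2, Col5a3 and Col11a1 were lower in KO under every condition, and Col11a2 was tested in neither table. Col5a2 measured 140 and 139 FPKM in WT DMSO, 40.7 and 39.1 in KO DMSO, 88.8, 88.6 and 98.2 in WT DAC, and 47.1, 43.8 and 42.4 in KO DAC, with no overlap between genotypes. Its KO change was -1.78 ± 0.07 in DMSO and -1.03 ± 0.06 in DAC (adjusted p = 2.8e-07 and 8.3e-06). DAC lowered it in WT (-0.60 ± 0.06) but its change in KO was not called (0.15 ± 0.06, adjusted p = 0.086), and the responses differed (0.75 ± 0.09, adjusted p = 0.00048). Without the same pair of DAC libraries the KO change was called (0.11, adjusted p = 0.0316). With the siRNAs it measured 270.5, 228 and 240.4 RPKM in WT NT against 102, 89.3 and 94.6 in KO NT, and 224, 220.1 and 225 in WT H2AZ siRNA against 92.5, 84.0 and 85.2 in KO H2AZ siRNA. The KO changes of -1.36 ± 0.07 and -1.35 ± 0.07 were called (adjusted p = 2.5e-08 and 2.6e-08).

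Col5a1 was lower in KO in the same comparisons. Its 94.6 and 99.7 FPKM in WT DMSO stood against 33.0 and 35.8 in KO DMSO (-1.47 ± 0.13, adjusted p = 2.9e-05), and the siRNA changes were -0.44 ± 0.07 with NT and -0.60 ± 0.07 with H2AZ siRNA (adjusted p = 0.00027 and 2.8e-05). Col11a1, at 11.6 and 13.5 FPKM in WT DMSO, measured 2.99 and 3.34 in KO DMSO, 4.22, 4.70 and 5.30 in WT DAC, and 0.687, 0.746 and 0.800 in KO DAC. Genotype and DAC each lowered it in every comparison of that table, and the DAC responses of -1.24 ± 0.10 in WT and -1.25 ± 0.10 in KO were not called different (-0.02 ± 0.14, adjusted p = 0.96). That value depends on the added 1, which compresses low levels: with a pseudocount of 0.1 it was -0.56 (adjusted p = 0.0589), and limma-voom on the recovered reads called a lower response in KO (-0.68, adjusted p = 0.0162). Col5a3 was lower in KO with a change of -1.06 ± 0.12 in DAC and of -1.42 ± 0.08 and -1.498 ± 0.08 with the siRNAs. Its DMSO change of -0.63 ± 0.15 (adjusted p = 0.0087) lost the call without KO DMSO replicate 1 (adjusted p = 0.0514) or WT DMSO replicate 2 (adjusted p = 0.0567). Its fall with DAC in KO (-0.43 ± 0.14, adjusted p = 0.03) lost the call without KO DAC replicate 1, KO DMSO replicate 1 or KO DMSO replicate 2 (adjusted p = 0.0715, 0.0925 and 0.136).

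Among lower-level fibrillar chains, Col27a1 averaged 4.54 FPKM in WT DMSO, 2.17 in KO DMSO, 2.38 in WT DAC and 0.999 in KO DAC, and was lower in KO in both treatments (-0.80 ± 0.10 and -0.76 ± 0.08). Col2a1, the main collagen of cartilage, measured 1.70 and 1.29 in WT DMSO and 0.0364 and 0.00537 in KO DMSO, and 0.876, 0.920 and 0.785 in WT DAC against 0.0217, 0.139 and 0.167 in KO DAC. All WT libraries lay above all KO libraries. Col2a1 passed the filter only through WT DMSO, so its differences are in part a product of the filter. Its fall with DAC in WT (-0.42 ± 0.11, adjusted p = 0.025) lost the call without any 1 of the 3 WT DAC libraries or WT DMSO replicate 1 (adjusted p = 0.0534 to 0.179). Chondrocyte markers moved with this gene in DMSO (summed level 25.4 to 28.1 in WT and 14.1 to 14.9 in KO, with Hapln1 and Matn1 at 0 in KO) while in DAC their sum was higher in KO (11.9 to 13.2 in WT and 16.1 to 17.9 in KO). Sox9 made up most of that sum (mean 7.55 in WT DAC and 15.8 in KO DAC), and the other 7 markers had lower means in KO DAC, Comp for example at 4.01 in WT and 0.590 in KO. Only 2 of the 8 markers averaged at least 1 in WT DAC and 1 in KO DAC, and of the 4 tested 1 was higher and 1 lower in KO. Their part was not tested.

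**Figure D3:**
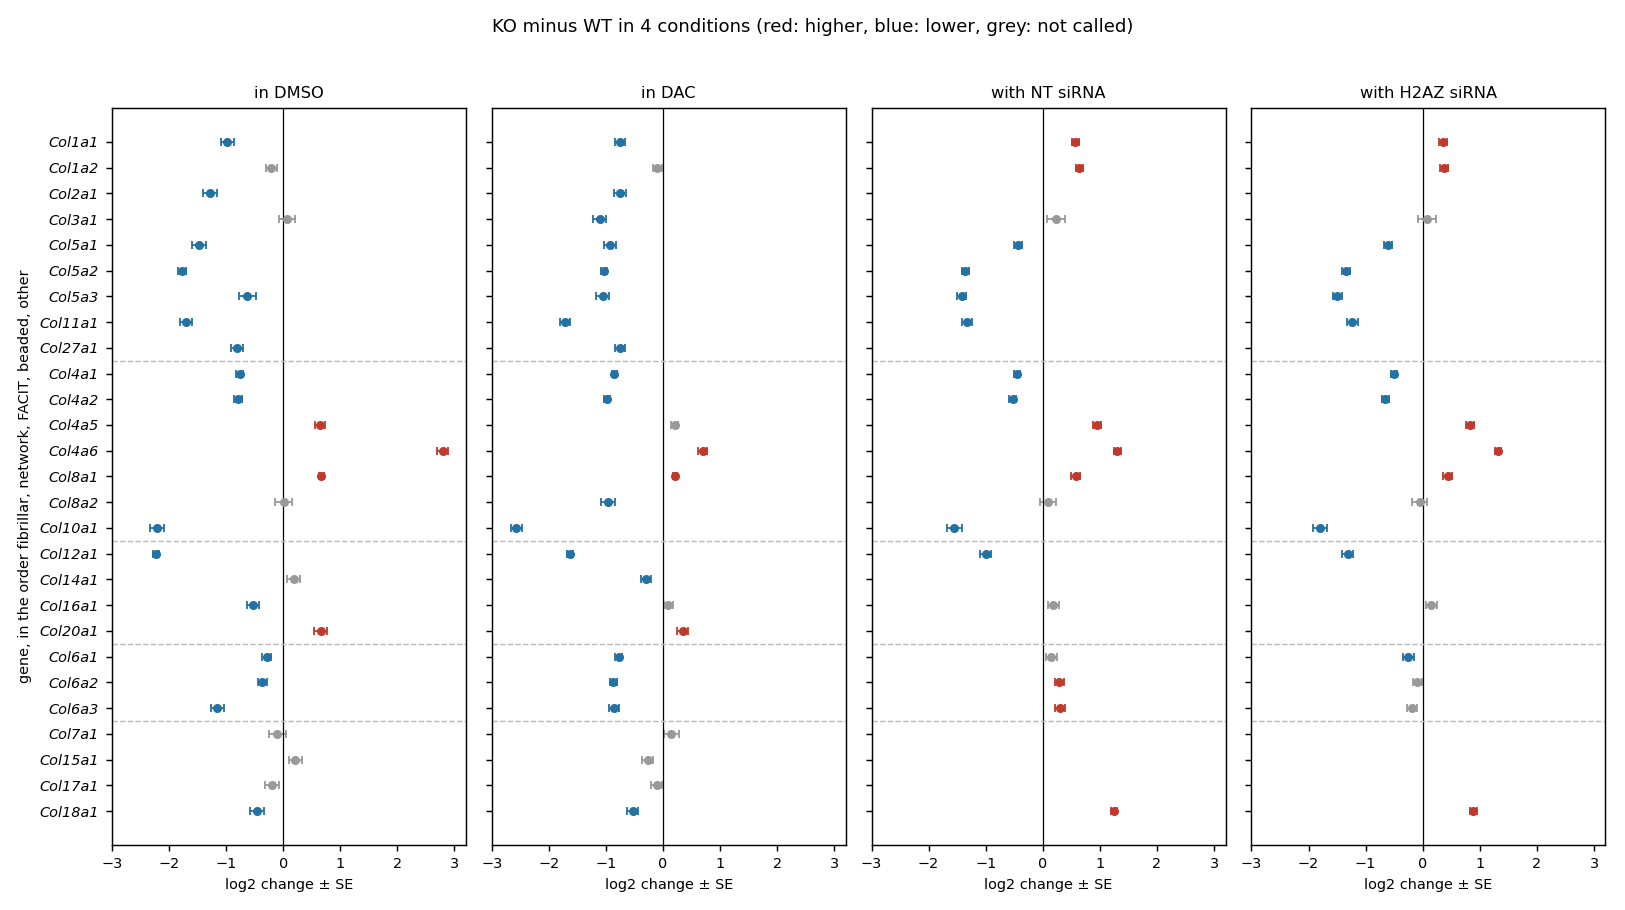
Difference between KO and WT in log2(value + 1), with its SE, for each collagen gene tested in DMSO, DAC, NT siRNA and H2AZ siRNA, in class order. Col5a1, Col5a2, Col5a3, Col11a1, Col4a1, Col4a2, Col10a1 and Col12a1 lie left of 0 in all 4 panels, Col4a6 and Col8a1 right of 0 in all 4, and Col1a1 and Col18a1 change side between the tables.

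Network collagens split into chains that were lower and chains that were higher in KO. Col4a1, of the general basement membrane network, measured 109.4 and 111 FPKM in WT DMSO, 64.4 and 64.8 in KO DMSO, 77.7, 79.9 and 84.7 in WT DAC, and 43.99, 45.4 and 43.3 in KO DAC. With siRNA it measured 68.9, 62.2 and 66.6 RPKM in WT NT, 50.7, 44.2 and 48.6 in KO NT, 63.0, 63.8 and 62.8 in WT H2AZ siRNA, and 46.4, 44.5 and 42.3 in KO H2AZ siRNA. Genotypes did not overlap under any condition, and the KO changes were -0.76 ± 0.05, -0.85 ± 0.04, -0.46 ± 0.06 and -0.50 ± 0.06 in DMSO, DAC, NT and H2AZ siRNA (adjusted p from 6.2e-06 to 3.6e-05).

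Col4a2, its partner chain with an adjoining start site, followed closely. It measured 78.3 and 79.6 FPKM in WT DMSO, 46.1 and 44.5 in KO DMSO, 55.1, 55.1 and 50.5 in WT DAC, and 25.1, 27.4 and 27.6 in KO DAC. With siRNA it measured 35.3, 31.8 and 32.9 RPKM in WT NT, 24.3, 21.5 and 22.7 in KO NT, 31.5, 33.9 and 30.7 in WT H2AZ siRNA, and 21.2, 19.2 and 19.5 in KO H2AZ siRNA. Its KO changes were -0.79 ± 0.07, -0.98 ± 0.05, -0.53 ± 0.06 and -0.66 ± 0.06 in the same order. DAC lowered both chains in both genotypes, Col4a1 by changes of -0.45 ± 0.05 and -0.54 ± 0.05 and Col4a2 by -0.55 ± 0.06 and -0.74 ± 0.06, and the responses were not called different between genotypes (adjusted p = 0.41 and 0.15). Leaving out WT DAC replicate 3 and KO DAC replicate 1 together gave a called difference for Col4a2 (-0.19, adjusted p = 0.0226).

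Col4a5 and Col4a6, neighbours on the X chromosome that assemble into specialised basement membranes, went the other way in KO. Col4a6 measured 0.274 and 0.335 FPKM in WT DMSO and 7.90 and 8.20 in KO DMSO, but 1.10, 1.04 and 1.05 in KO DAC against 0.345, 0.256 and 0.231 in WT DAC. KO lay above WT in both treatments (2.795 ± 0.09 and 0.69 ± 0.08), DAC lowered it in KO (-2.13 ± 0.08) and its change in WT was not called (-0.03 ± 0.08, adjusted p = 0.83). The difference between these responses was -2.10 ± 0.12 (adjusted p = 9.1e-06). Among siRNA libraries it measured 0.112 to 0.133 RPKM in WT NT and 1.71 to 1.87 in KO NT, and 0.118 to 0.157 in WT and 1.78 to 1.94 in KO with H2AZ siRNA. The mesothelial marker sum was also higher in KO in both treatments (10.2 to 12.3 in WT DMSO, 1040 to 1073 in KO DMSO, 43.5 to 57.9 in WT DAC, 122 to 143.4 in KO DAC). With DAC that sum was lower in KO, where Col4a6 fell too. In WT the sum was higher with DAC, and the Col4a6 change there, at the low levels of 0.231 to 0.345 FPKM, was not called. The part of such cells was not tested.

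Col4a5 measured 9.32 and 10.7 FPKM in WT DMSO, 16.4 and 16.0 in KO DMSO, 5.69, 5.73 and 5.64 in WT DAC, and 6.68, 6.18 and 7.24 in KO DAC. It was higher in KO in DMSO (0.65 ± 0.08, adjusted p = 0.00029) and not called in DAC (0.20 ± 0.07, adjusted p = 0.065), although those groups did not overlap. It was called in DAC under median centring (adjusted p = 0.0477), by limma-voom (adjusted p = 0.0424) and without KO DAC replicate 2 (adjusted p = 0.0492). With NT and H2AZ siRNA KO was higher, with changes of 0.94 ± 0.07 and 0.82 ± 0.07 (adjusted p = 7.2e-07 and 2.2e-06). As both genes are X-linked and the genotypes differ in Y-linked RNA, the number of X chromosomes and the genotype cannot be told apart here.

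Col8a1 and Col8a2 form the short-chain network of type VIII collagen, known from vessel walls and the cornea. Col8a1 was higher in KO under every condition and rose with DAC in both genotypes: it measured 24.7 and 24.3 FPKM in WT DMSO, 39.8 and 39.4 in KO DMSO, 44.8, 46.9 and 44.7 in WT DAC, and 54.0, 52.0 and 51.9 in KO DAC. No 2 of these 4 groups overlapped. The DAC change was 0.86 ± 0.04 in WT and 0.40 ± 0.04 in KO (adjusted p = 7.5e-06 and 0.00011), and the responses differed by -0.46 ± 0.06 (adjusted p = 0.00089). Col8a2 moved the other way with DAC, from 3.78 and 4.94 FPKM in WT DMSO to 1.301, 1.97 and 1.90 in WT DAC and from 4.28 and 4.46 in KO DMSO to 0.486, 0.328 and 0.362 in KO DAC. The changes were -0.98 ± 0.14 and -1.95 ± 0.14 (adjusted p = 0.0011 and 8.3e-06), and they differed by -0.97 ± 0.20 (adjusted p = 0.0076).

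Col10a1 measured 45.5 and 45.3 FPKM in WT DMSO, 8.75 and 9.37 in KO DMSO, 27.2, 29.3 and 36.3 in WT DAC, and 4.64, 4.16 and 4.20 in KO DAC. It was lower in KO by changes of -2.21 ± 0.12 and -2.57 ± 0.10 (adjusted p = 1.5e-06 and 1.1e-06), and by -1.55 ± 0.13 and -1.80 ± 0.13 with NT and H2AZ siRNA (adjusted p = 1.6e-06 and 4.9e-07). The related cartilage gene Col2a1 was far lower in level, and the chondrocyte marker sum was higher in WT in DMSO and higher in KO in DAC and with NT siRNA (1.74 to 2.43 in WT NT and 3.02 to 3.16 in KO NT). In DAC the higher sum in KO came from Sox9, while the other 7 markers had lower means in KO. Only 2 of the 8 averaged at least 1 in WT DAC and 1 in KO DAC. Of the 4 tested in DAC, 1 was higher and 1 lower in KO. The 2 tested with NT siRNA were higher in KO, where Col10a1 was lower. The part of these markers was not tested.

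In the FACIT class Col12a1, which binds the surface of type I fibrils, had the widest genotype gap. It measured 41.7 and 41.2 FPKM in WT DMSO, 8.07 and 7.98 in KO DMSO, 44.3, 46.1 and 42.7 in WT DAC, and 13.5, 14.1 and 13.3 in KO DAC. The KO changes were -2.23 ± 0.05 and -1.63 ± 0.04 (adjusted p = 2.3e-08 and 2.3e-07), DAC raised it in KO (0.70 ± 0.05, adjusted p = 8.2e-06), and its WT change was not called (0.10 ± 0.05, adjusted p = 0.19). The responses differed by 0.60 ± 0.07 (adjusted p = 0.00039). It was lower in KO with both siRNAs as well (-1.004 ± 0.10 and -1.32 ± 0.10).

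Col16a1 averaged 22.3 FPKM in WT DMSO, 15.1 in KO DMSO, 11.3 in WT DAC and 12.2 in KO DAC. DAC lowered it in WT (-0.92 ± 0.09, adjusted p = 0.00016), while its KO change (-0.29 ± 0.09, adjusted p = 0.028) lost the call without KO DAC replicate 1, KO DAC replicate 2 or KO DMSO replicate 2 (adjusted p = 0.0658, 0.0581 and 0.193). The responses differed by 0.63 ± 0.13 (adjusted p = 0.0076). Col14a1, at 1.22 and 1.54 FPKM in WT DMSO and 1.82 and 1.58 in KO DMSO, measured 0.317 to 0.387 in WT DAC and 0.0882 to 0.119 in KO DAC, and DAC lowered it in both genotypes (-0.81 ± 0.10 and -1.29 ± 0.10). Its KO change in DAC (-0.30 ± 0.09, adjusted p = 0.045) lost the call whichever of the 6 DAC libraries was left out (adjusted p = 0.0864 to 0.116). Col14a1 passed the filter only through the DMSO groups, so its fall with DAC is in part a product of the filter. Col20a1 was higher in KO in DMSO, at 2.14 and 2.37 FPKM against 1.07 and 1.06 (0.66 ± 0.11, adjusted p = 0.0018). Its DAC difference of 0.34 ± 0.09 (adjusted p = 0.031) was kept without KO DAC replicate 1 and lost when any other of the 6 DAC libraries was left out (adjusted p = 0.0527 to 0.101).

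The 3 main chains of type VI collagen, which together build 1 beaded filament, were all lower in KO in the DMSO and DAC table. Col6a1 measured 306 and 332 FPKM in WT DMSO, 258 and 263 in KO DMSO, 170.3, 173 and 196 in WT DAC, and 104, 102 and 107 in KO DAC. The groups did not overlap, and DAC lowered it more in KO (-1.32 ± 0.07) than in WT (-0.82 ± 0.07), with a called difference of -0.49 ± 0.10 (adjusted p = 0.0086). The KO change was -0.78 ± 0.06 in DAC (adjusted p = 8.2e-05), and in DMSO it was -0.29 ± 0.08 (adjusted p = 0.018). The DMSO call was lost without KO DMSO replicate 1, KO DMSO replicate 2 or WT DMSO replicate 2 (adjusted p = 0.0864, 0.0625 and 0.115).

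Col6a2 followed Col6a1, at 85.9 and 94.5 FPKM in WT DMSO, 70.0 and 69.7 in KO DMSO, 47.7, 47.4 and 49.5 in WT DAC, and 24.3, 25.2 and 28.1 in KO DAC. Its DAC changes were -0.89 ± 0.07 in WT and -1.40 ± 0.07 in KO and differed by -0.51 ± 0.10 (adjusted p = 0.0056). Col6a3, the longest of the main chains, had a larger genotype gap in DMSO, at 73.0 and 81.1 FPKM in WT against 33.4 and 34.9 in KO (-1.15 ± 0.11, adjusted p = 4.8e-05), and with DAC it measured 55.4, 55.6 and 48.7 in WT and 25.3, 30.3 and 31.3 in KO. Its DAC change in KO was not called by limma on log values (-0.24 ± 0.10, adjusted p = 0.085) and was called at the same size by limma-voom (adjusted p = 0.0423), and that in WT (-0.53 ± 0.10, adjusted p = 0.0049) lost the call without WT DMSO replicate 2 (adjusted p = 0.0547).

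With NT siRNA the type VI chains were not lower in KO. Col6a1 measured 72.1, 57.0 and 61.4 RPKM in WT NT and 71.1, 67.2 and 71.9 in KO NT, which overlapped (0.15 ± 0.10, adjusted p = 0.21). It measured 62.4, 70.2 and 71.3 in WT and 52.2, 53.3 and 65.3 in KO with H2AZ siRNA (-0.26 ± 0.10, adjusted p = 0.037), and these overlapped too. That call was lost under median centring (-0.10, adjusted p = 0.335) and without KO H2AZ siRNA replicate 1 or 2 or WT H2AZ siRNA replicate 2 or 3 (adjusted p = 0.132, 0.123, 0.1 and 0.114). The NT difference for Col6a1 was called without WT NT replicate 1 (0.24, adjusted p = 0.0466) and under median centring (0.27, adjusted p = 0.0184). Col6a2 measured 9.34, 7.57 and 9.24 in WT NT, 11.1, 10.7 and 10.64 in KO NT, 9.0, 10.2 and 9.74 in WT H2AZ siRNA, and 8.64, 8.42 and 9.92 in KO H2AZ siRNA. Col6a3 measured 26.2, 24.0 and 24.6 in WT NT, 35.3, 29.1 and 28.5 in KO NT, 33.8, 35.0 and 35.1 in WT H2AZ siRNA, and 29.0, 27.7 and 34.3 in KO H2AZ siRNA. With NT both were higher in KO without overlap (0.29 ± 0.08 and 0.30 ± 0.09, adjusted p = 0.0077 and 0.011), and with H2AZ siRNA neither was called (adjusted p = 0.33 and 0.076). Col6a3 was called lower in KO without KO H2AZ siRNA replicate 3 (-0.28, adjusted p = 0.0126).

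**Figure D4:**
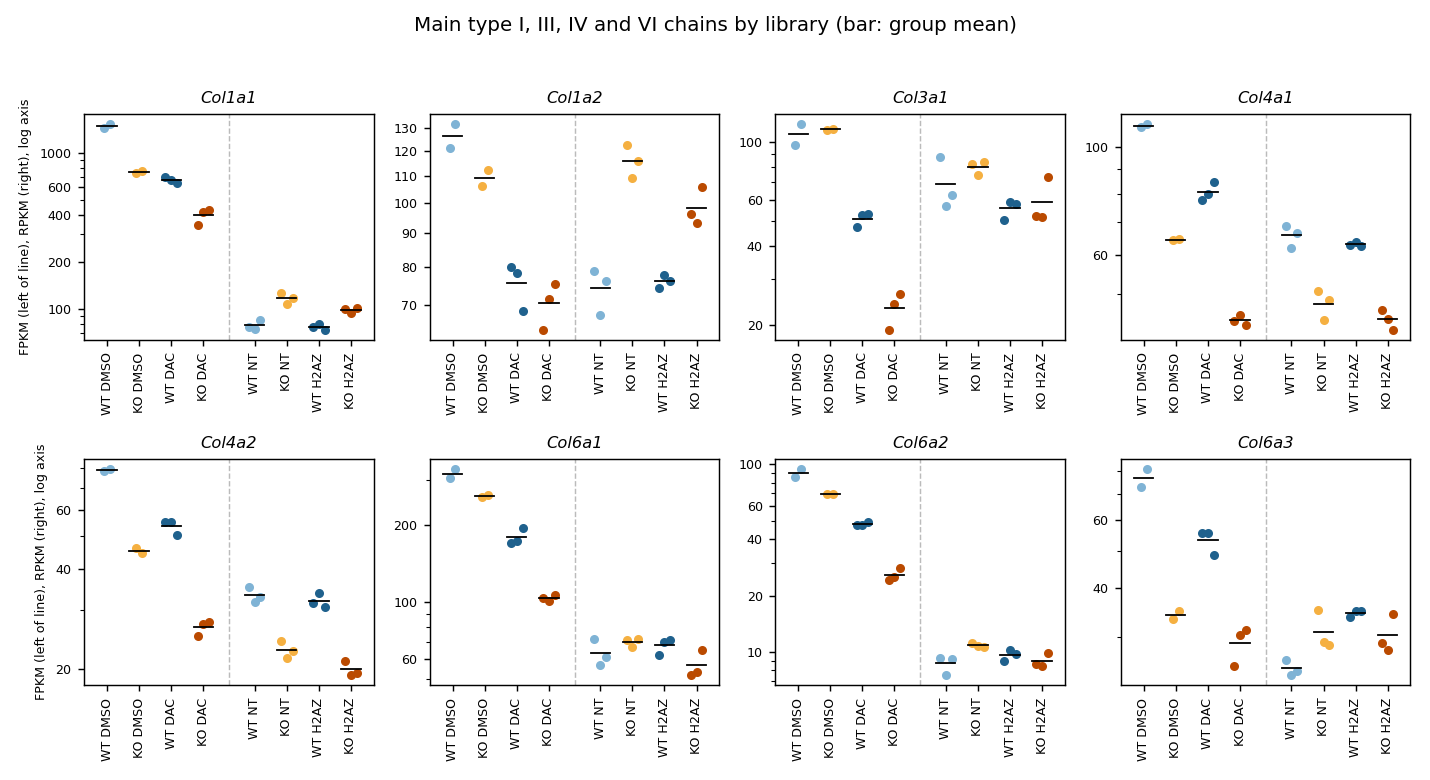
Deposited level of the main type I, III, IV and VI chains in every library on a log axis, with FPKM left of the dashed line and RPKM right of it, points for libraries and bars for group means. Col1a1 runs from 1440 and 1529 FPKM in WT DMSO to 346 to 429 in KO DAC and lies at 73.9 to 126 RPKM in the siRNA table, where KO lies above WT.

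Of the remaining chains, Col18a1 rose most with DAC. This basement membrane proteoglycan is the source of endostatin. It measured 3.79 and 3.65 FPKM in WT DMSO, 2.47 and 2.42 in KO DMSO, 14.2, 14.4 and 10.9 in WT DAC, and 8.40, 9.07 and 8.71 in KO DAC. The groups did not overlap, the DAC changes were 1.57 ± 0.11 and 1.497 ± 0.11 (adjusted p = 2.9e-05 and 9.3e-06), and they were not called different (-0.08 ± 0.15, adjusted p = 0.77). KO was lower in DAC (-0.53 ± 0.10, adjusted p = 0.0054), while the DMSO change (-0.45 ± 0.12, adjusted p = 0.014) lost the call whichever of the 4 DMSO libraries was left out (adjusted p = 0.0513 to 0.069). With siRNA it was higher in KO: 7.80, 7.33 and 8.01 RPKM in WT NT stood against 21.1, 18.5 and 19.4 in KO NT (1.25 ± 0.06, adjusted p = 1.9e-08), and 9.99, 10.1 and 9.90 against 19.7, 17.9 and 20.3 with H2AZ siRNA (0.88 ± 0.06, adjusted p = 3.5e-07).

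Col7a1, the anchoring fibril collagen of the skin, rose from 0.289 and 0.310 FPKM in WT DMSO to 1.04, 0.903 and 0.514 in WT DAC and from 0.188 and 0.229 in KO DMSO to 0.868, 1.10 and 1.04 in KO DAC. The KO change was 0.73 ± 0.14 (adjusted p = 0.0026), and the WT change of 0.47 ± 0.14 (adjusted p = 0.033) lost the call without WT DAC replicate 1 or 2 or WT DMSO replicate 1 or 2 (adjusted p = 0.091, 0.0932, 0.128 and 0.13). Col7a1 passed the filter only through the DAC groups, so its rise is in part a product of the filter. Col15a1, a relative of Col18a1, did not rise: its DAC change was -0.39 ± 0.10 in WT and -0.87 ± 0.10 in KO (adjusted p = 0.022 and 0.00017), and the WT call was lost without WT DAC replicate 3 (adjusted p = 0.0542) or WT DMSO replicate 2 (adjusted p = 0.17). Col17a1, a transmembrane chain of hemidesmosomes, was called in no comparison of the table.

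The responses to DAC differed between genotypes for 14 of the 27 collagens, 5 with a higher and 9 with a lower change in KO, where 24.1% of all genes differed (12.4% higher, 11.7% lower). The differences ran from -2.10 for Col4a6 to 0.75 for Col5a2. Of the 14, Col4a6 passed the filter only through KO libraries, Col2a1 only through WT DMSO and Col14a1 only through the DMSO groups. Col8a2 and Col15a1 reached 1 FPKM in every group but KO DAC. The differences of these genes are in part a product of the filter. Leaving out 1 library at a time gave totals of 9 to 13 called collagens, newly called genes included. The total was 9 without KO DMSO replicate 1, KO DMSO replicate 2 or WT DMSO replicate 1. KO DMSO libraries, which enter this comparison, are those with the high mesothelial marker sum, and the part of these markers was not tested.

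With the siRNA against H2A.Z the share of collagens called was close to that of all genes. In WT 4 of the 20 tested rose and none fell, where 15.3% of genes were called (4.88% higher, 10.4% lower). They were Col8a1, at 29.0, 24.3 and 24.4 RPKM with NT and 35.5, 33.7 and 38.0 with H2AZ siRNA (0.45 ± 0.08, adjusted p = 0.003), Col6a3 (0.46 ± 0.09, adjusted p = 0.0052), Col18a1 (0.34 ± 0.06, adjusted p = 0.0038) and Col10a1 (0.49 ± 0.13, adjusted p = 0.025). The 3 WT libraries of each siRNA did not overlap for these genes, nor for 3 others of the 20, against 38% of all genes. The Col10a1 call was lost in 5 of the 6 fits that left out 1 library (adjusted p up to 0.0889) and kept without WT NT replicate 1.

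In KO 1 of the 20 rose with H2AZ siRNA and 5 fell, where 25.5% were called (6.56% higher, 19% lower), and median centring gave 2 higher and 0 lower. With the replicate number as a block, which the deviations of these 2 groups allow, 8 were called, with Col12a1 (-0.25, adjusted p = 0.033) and Col16a1 (-0.29, adjusted p = 0.0381) added as lower. The groups did not overlap for 12 of the 20, against 39% of all genes. The gene that rose was Col8a1 again, at 42.6, 37.0 and 37.6 RPKM with NT and 49.6, 46.2 and 50.1 with H2AZ siRNA (0.31 ± 0.08, adjusted p = 0.013). Col1a1, Col1a2, Col4a2, Col6a1 and Col6a2 had changes of -0.24, -0.23, -0.19, -0.30 and -0.25 (adjusted p = 0.018, 0.024, 0.043, 0.041 and 0.042), and under median centring none of the 5 was called (adjusted p = 0.0856, 0.07, 0.168, 0.0933 and 0.131). The count of called genes was 1 without KO H2AZ siRNA replicate 2, KO NT replicate 1 or KO NT replicate 3, and 3 without KO H2AZ siRNA replicate 1. Without both WT NT replicate 1 and KO NT replicate 1 it was 4, of which 1 was among the 6, and none of the 5 lower genes was called (adjusted p = 0.0527 to 0.0998). No collagen responded differently to the siRNA in the 2 genotypes by limma, where 1 of 12668 genes (0.00789%) did. At an unadjusted p under 0.05 there were 7 of the 20, against 8.64% of all genes, and limma-voom on the recovered reads called 0. Among the 7, the differences ran from -0.49 ± 0.12 for Col6a3 (adjusted p = 0.32) to -0.21 ± 0.09 for Col1a1 (adjusted p = 0.56).

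Over the 4 conditions, 8 of the 20 collagens tested in both tables were lower in KO every time: Col4a1, Col4a2, Col5a1, Col5a2, Col5a3, Col10a1, Col11a1 and Col12a1. Among the 11906 genes that both tables tested, 5.12% were. Col4a6 and Col8a1 were higher every time, where 3.29% of genes were. Col4a6 passed the filter only through KO libraries, and Col11a1 of the siRNA table only through WT libraries. Their patterns are therefore in part a product of the filter. Col1a1, Col6a2, Col6a3 and Col18a1 were called lower in DMSO and higher with NT siRNA, where 5.53% of those genes were. No collagen had the opposite pattern, which 6.05% of those genes had. The Col5a3 and Col18a1 calls in DMSO are those that depended on single libraries.

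Ratios between chains of 1 collagen type within a library do not depend on the scaling total. Type I collagen is built mainly from a pair of Col1a1 chains with a Col1a2 chain. The level of Col1a1 over Col1a2 was 11.9 and 11.6 in WT DMSO, 6.95 and 6.82 in KO DMSO, 8.74, 8.57 and 9.31 in WT DAC, and 5.39, 5.82 and 5.69 in KO DAC, with no overlap between groups. In all 12 siRNA libraries it lay between 0.962 and 1.12. The gene lengths solved from the values were 6563 bases for Col1a1 and 12136 for Col1a2, and the ratio depends on them. By reads, WT DMSO replicate 1 had 289803 for Col1a1 and 45109 for Col1a2. Mean Col1a1 was 1484 FPKM in WT DMSO and 78.6 RPKM in WT NT, while Col1a2 was 126.6 and 74.2. Col6a2 (90.2 and 8.71) and Col27a1 (4.54 and 0.333) also stood far apart, while Col8a1 (24.5 and 25.9) and Col5a3 (7.04 and 6.10) were close and Col5a2 (139.1 and 246.2) was higher in the siRNA table. Culture, library preparation and table cannot be told apart in this gap.

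The ratio of Col4a1 to Col4a2 was steadier, at 1.40 to 1.75 with DMSO or DAC and 1.89 to 2.32 with the siRNAs. Col6a1 over Col6a2 was 3.51 to 4.28 and 6.04 to 7.72. Col5a2 over Col5a1 was 1.09 to 1.90 in the first table, and in the second it was 6.71 to 7.76 in WT NT, 3.70 to 4.13 in KO NT, 5.66 to 5.87 in WT H2AZ siRNA and 3.43 to 3.52 in KO H2AZ siRNA, with no overlap between genotypes.

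**Figure D5:**
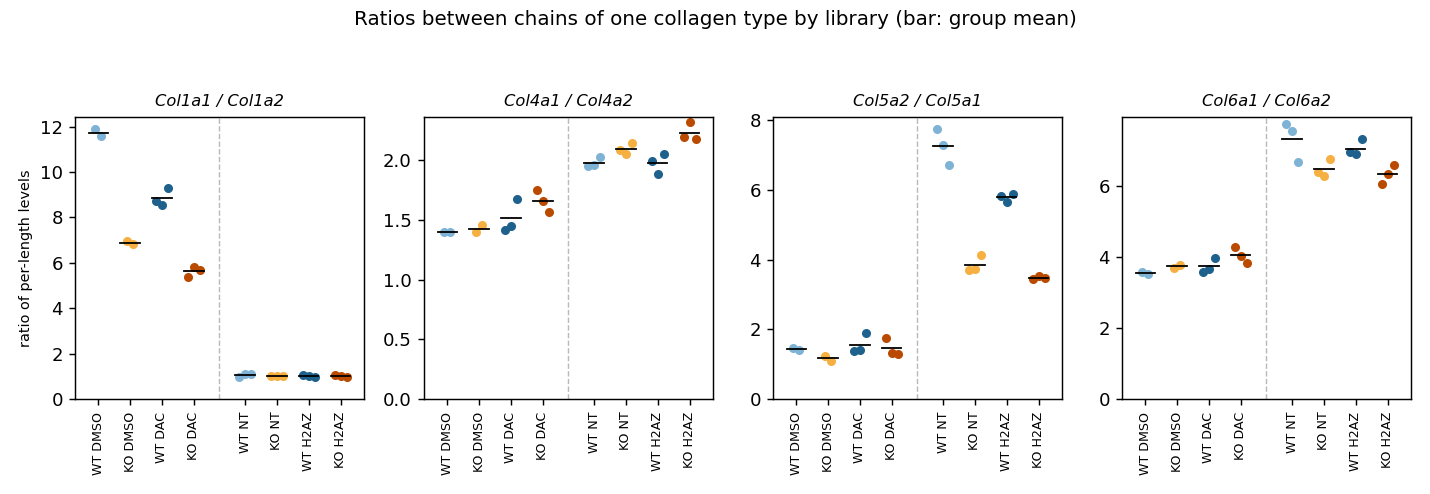
Ratio of the per-length levels of chains of 1 collagen type in every library, with the DMSO and DAC table left of the dashed line, points for libraries and bars for group means. Col1a1 over Col1a2 separates the 4 groups of the first table between 5.39 and 11.9 and lies near 1 in every siRNA library.

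Genes that make, move and bind collagen were counted from lists. Of 20 genes for chain modification and folding, 10 were lower and 4 higher in KO in DMSO, with a median of -0.27 against -0.04 over all genes, of which 22.9% were lower and 19.6% higher. The lower ones included Serpinh1, the collagen chaperone HSP47 (265.4 FPKM in WT and 156.3 in KO, -0.76), and Crtap, of the prolyl 3-hydroxylation complex (76.1 and 39.3, -0.93), and the higher ones Plod2, a lysyl hydroxylase (6.72 and 14.1, 0.96). In DAC 9 were lower and 2 higher in KO (11.6% and 11.1% of all genes). DAC lowered 9 and raised 1 in WT (13.8% and 14.5% of all genes) and lowered 8 and raised 2 in KO (21.6% and 23.7%), and P4ha3, a prolyl 4-hydroxylase subunit, fell in both (-1.21 ± 0.13 and -1.51). With NT siRNA 11 of 17 tested were lower and 3 higher in KO (40.4% and 23.7% of all genes), and with H2AZ siRNA 11 and 2 (42.7% and 20.2%). In response to the H2AZ siRNA, 3 rose and 3 fell in WT, Colgalt1 among the former (0.25 ± 0.05) and P3h1 among the latter (-0.34 ± 0.06), and 0 rose and 5 fell in KO. Over all genes 4.88% rose and 10.4% fell in WT, and 6.56% and 19% in KO.

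For procollagen export 9 of the 10 listed genes were found. In KO 2 were lower and 1 higher in DMSO, where 42.5% of all genes were called, and 0 and 1 in DAC, where 22.7% were. Under the NT and H2AZ siRNAs 6 and 7 were lower, against 40.4% and 42.7% of all genes, and 0 were higher. Creb3l1, a factor that drives secretory and collagen genes, averaged 37.4 FPKM in WT DMSO, 21.1 in KO DMSO, 45.6 in WT DAC and 43.2 in KO DAC, so that DAC raised it in KO (0.998 ± 0.08, adjusted p = 1.2e-05). DAC raised 1 and lowered 0 of the 9 in WT (14.5% and 13.8% of all genes). In KO it raised 3 and lowered 1 (23.7% and 21.6%). Sec23a, of the vesicle coat that carries procollagen, fell with H2AZ siRNA in both genotypes (-0.67 ± 0.06 and -0.70 ± 0.06). In that response 2 of the 9 rose and 3 fell in WT (4.88% and 10.4% of all genes), and 1 rose and 3 fell in KO (6.56% and 19%).

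Of 8 genes for propeptide removal, 7 were tested in the DMSO and DAC table. In KO 5 were lower and 1 higher in DMSO (22.9% and 19.6% of all genes) and 4 and 1 in DAC (11.6% and 11.1%). Pcolce, the enhancer of C-propeptide cleavage, averaged 182.5 FPKM in WT DMSO and 83.6 in KO DMSO (-1.12 ± 0.14, adjusted p = 0.00022). Adamts14, which trims N-propeptides, was the one higher in DMSO (1.06 and 5.99 FPKM, 1.77 ± 0.13, adjusted p = 1.1e-05). Adamts2, with the same function, changed with DAC by -1.75 ± 0.09 in KO and by -0.61 in WT, with a difference of -1.14 ± 0.12 (adjusted p = 0.00025). DAC lowered 3 and raised 0 in WT (13.8% and 14.5% of all genes), and lowered 2 and raised 2 in KO (21.6% and 23.7%). Of the 4 tested in the siRNA table, 2 were higher and 1 lower in KO under each siRNA (20.2 to 23.7% and 40.4 to 42.7% of all genes): Pcolce was higher (72.8 RPKM in WT NT and 103.7 in KO NT) and Tll1, a C-propeptide protease, was lower (12.5 and 1.19, -2.63 ± 0.09, adjusted p = 1.1e-09). With H2AZ siRNA 0 were called in WT (15.3% of all genes), and 1 fell in KO (19%).

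Of 10 collagen receptors 8 were tested in the DMSO and DAC table. In KO 4 were lower and 2 higher in DMSO (22.9% and 19.6% of all genes), and 4 and 0 in DAC (11.6% and 11.1%). Ddr1 and Ddr2, receptor kinases for collagen, went opposite ways in DMSO: Ddr1 averaged 12.8 FPKM in WT and 39.7 in KO (1.56 ± 0.14, adjusted p = 4e-05), and Ddr2 41.8 and 20.3 (-1.01 ± 0.07, adjusted p = 7.2e-06). Ddr1 is also an epithelial gene. Mesothelial markers were high in the same KO libraries, and their part in the Ddr1 difference was not tested. Itga11, the integrin chain for fibrillar collagen, fell with DAC by -0.86 ± 0.08 in WT and by -1.78 ± 0.08 in KO. DAC lowered 3 and raised 2 in WT (13.8% and 14.5% of all genes) and lowered 2 and raised 1 in KO (21.6% and 23.7%). With siRNA 3 of 6 tested were lower and 2 higher in KO under both, near the 40.4 to 42.7% and 20.2 to 23.7% of all genes. Itgb1, the common partner chain of the collagen integrins, averaged 369.6 RPKM in WT NT and 144.8 in KO NT (-1.35 ± 0.07, adjusted p = 5.5e-08). The H2AZ siRNA lowered 2 of the 6 and raised 0 in each genotype. Over all genes it lowered 10.4% and raised 4.88% in WT, and 19% and 6.56% in KO.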

How the data were processed

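The authors deposited 2 tables, 1 in FPKM (10 libraries) and 1 in RPKM (12 libraries), each listing 43432 Ensembl genes, of which 42462 carry a symbol in the reference table. Per the labels' protocols, total RNA went into stranded libraries (TruSeq). The genome build mm10 and the tools deepTools, STAR and Bowtie2 are named, per the submitters' processing notes. The tool versions, read counter, annotation and strand setting were not given in the sources used here. The CUT&Tag samples were not analysed here. All per-sample columns of both tables were used.

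The deposited FPKM and RPKM values rise in small steps, from which library totals and gene lengths were solved. The 30078 and 32935 genes above 0 then gave whole reads within 0.01 for 100% of values, and read counts used by limma-voom came from these. Levels are printed as deposited. At the scaling totals of 27503472 to 47172427 reads, precision is limited by the 2 or 3 libraries of a group.

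The 4 groups of a table shared 1 fit on log2(value + 1), over genes that reached 1 in 2 (FPKM) or 3 (RPKM) or more libraries, using limma 3.58.1 (lmFit, contrasts.fit, eBayes with trend) in R 4.3.3, with no block. P-values were adjusted by Benjamini-Hochberg over all 16435 or 12668 genes tested in a contrast. The code was tested on simulated data. Other steps used Python 3.11.15, numpy 2.4.6, pandas 2.3.3 and matplotlib 3.10.9. Promoters came from RefSeq (GRCm38.p6), with 9 collagen genes not matched.

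The members, classes, lists and tests were chosen with earlier results of these data known. The chains of types I, III, IV and VI named in the rule were printed in every library. Per comparison and class up to 3 called genes were added, those with the largest change whose groups did not overlap and whose higher mean reached 1. From each pathway list up to 2 higher and 2 lower called genes with a mean of at least 5 were eligible. Col2a1, Col17a1, Col27a1, Crtap and Serpinh1 were named after their values were seen.

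The labels do not say what a replicate number marks. The check of pairing met its bar (every same-numbered pair correlated over 0.1) only for KO NT with KO H2AZ siRNA (0.144 to 0.27), so the value with a block is given beside that response.

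Alternatives were median centring, limma-voom on the recovered reads, a filter at 5 or none, a pseudocount of 0.1, a replicate block, a fit of only the compared groups, and leaving out each library in turn. The joint omission of WT DAC replicate 3 and KO DAC replicate 1, or of WT NT replicate 1 and KO NT replicate 1, was chosen after seeing the data.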

Additional observations from a re-analysis of the deposited data

Results flagged for a closer look

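The response to DAC differed between KO and WT, by the interaction term of limma, for 14 collagen genes. The change in KO was lower than in WT for Col4a6 (-2.10), Col3a1 (-1.18), Col8a2 (-0.97), Col6a2 (-0.51), Col6a1 (-0.49), Col14a1 (-0.48), Col15a1 (-0.48), Col8a1 (-0.46) and Col4a5 (-0.44). It was higher than in WT for Col5a2 (0.75), Col16a1 (0.63), Col12a1 (0.60), Col5a1 (0.54) and Col2a1 (0.54). Col8a1 rose with DAC in both genotypes and rose less in KO. Col4a6 passed the filter only through KO libraries, Col2a1 only through WT DMSO and Col14a1 only through the DMSO groups. Col8a2 and Col15a1 reached 1 FPKM in every group but KO DAC. Their values are in part a product of the filter. Both chains of type VIII collagen and the Col6a1 and Col6a2 chains of type VI are on the first list. The Col5a1 and Col5a2 chains of type V are on the second. The remaining tested chains of types VI and V had the opposite sign and were not called. They were Col6a3 (0.29, adjusted p = 0.184) and Col5a3 (-0.43, adjusted p = 0.146). Without WT DAC replicate 3 and KO DAC replicate 1 they were called (0.32 and -0.44, adjusted p = 0.0234 and 0.0301).

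The calls for Col14a1, Col2a1, Col5a1 and Col15a1 were lost in 9, 8, 8 and 8 of the 10 fits that left out 1 library (adjusted p up to 0.148, 0.158, 0.153 and 0.149). That for Col4a5 was lost in 3, without KO DMSO replicate 1 or 2 or WT DMSO replicate 1 (adjusted p = 0.0678, 0.0523 and 0.0714). The other 9 calls were kept in all 10 of those fits. Groups of 2 or 3 libraries were too small for a test of single outlying samples.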

How the results depend on the processing

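The number of collagens called stayed within 1.5 times of the main count under every alternative for 8 of the 10 comparisons. The exceptions were the DAC response of KO minus that of WT, where 14 became 9 to 13 when 1 library was left out, and the H2AZ siRNA response in KO, where 6 became 2 under median centring, 3 with only the groups compared and 1 to 7 when 1 library was left out. No collagen in any comparison changed sign while called. Of the single-gene values under other settings, 48 of 451 for the DAC interaction and 39 of 277 for the H2AZ siRNA response in KO lost their call, and 16 of the latter gained one. The cause was not tested, except that leaving out a library or fitting fewer groups also leaves fewer samples. Median centring moved the median of all genes from -0.10 to 0.03 with NT and from -0.12 to 0.03 with H2AZ siRNA in the KO against WT comparisons.

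The correlations of the deviations of same-numbered libraries of different groups ran from -0.225 to 0.126 in the DMSO and DAC table, with 1 of 13 over 0.1, and from -0.104 to 0.319 in the siRNA table, with 6 of 18 over 0.1. A library correlated best with its own number in 15 of 26 and 18 of 36 checks. In the siRNA table the median correlation was 0.060 for same-numbered pairs and -0.046 for other pairs, of which 7 of 36 lay over 0.1. Some pairing in that table is therefore not excluded. The bar of all same-numbered pairs over 0.1 was met only between KO NT and KO H2AZ siRNA (0.144 to 0.27), and elsewhere the numbers were not taken as pairs. With the replicate block the collagen counts were 20, 20, 20, 19 and 10 for KO against WT in DMSO and in DAC, DAC in WT, DAC in KO and their difference, and 16, 15, 4, 8 and 0 for the corresponding siRNA comparisons. With WT DAC replicate 3 and KO DAC replicate 1, or replicate 1 of WT NT and KO NT, left out the counts in the same order were 21, 20, 20, 22 and 16, and 18, 16, 4, 4 and 0. Depth limits low genes: Col2a1 had 1 to 313 reads a library in the DMSO and DAC table.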
